A study of Mus musculus with 6 samples.

Results

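The genes of the vacuolar proton pump (V-ATPase) and of the acid secretion that an osteoclast uses to dissolve bone mineral were examined in 3 mouse femur RNA-seq libraries labelled OVX, the usual abbreviation for ovariectomy. Members were the protein-coding genes whose symbol starts with Atp6v or Atp6ap, together with Tcirg1, Clcn7, Ostm1, Car2, Snx10, Plekhm1 and Slc4a2. The rule found 33 of the 54532 genes listed: 13 of the V1 sector, 10 of the V0 sector, 3 accessory genes, 6 acid secretion partners, and Atp6v1fnb, which shares the prefix only as a neighbour of Atp6v1f. The study sequenced RNA from powdered femur of wild-type mice in 2 labelled groups of 3 samples, OVX given saline and Zin given zingerone by mouth at 100 mg/kg a day for 8 weeks. No FPKM column could be matched to a Zin label, so the values below are those of OVX libraries 1, 2 and 3 and no effect of zingerone was measured. The sample titles give these libraries 8, 9 and 10 weeks without saying what is counted, so a difference between libraries cannot be told apart from one between those weeks. The labels give neither age nor strain. The labels also name osteoclast precursor cells and RAW264.7, a mouse macrophage line, but erythroid markers summed to 43695 to 55943 FPKM and osteoblast markers to 1885 to 6362 FPKM in the 3 libraries, and such a line is not known for either.

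The V-ATPase is a rotary enzyme. Its V1 sector, in the cytosol, splits ATP and turns a rotor that drives protons through the V0 sector in the membrane. Every cell uses it to acidify lysosomes and endosomes, and an osteoclast also places it in the ruffled border that faces bone, with a3 (Tcirg1) as the a subunit. Car2, cytosolic carbonic anhydrase, supplies protons and bicarbonate. Slc4a2 exports the bicarbonate for chloride, and the chloride-proton exchanger Clcn7, with its partner Ostm1, brings chloride to the acid side. Snx10 and Plekhm1 act in vesicle traffic to lysosomes and the ruffled border.

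Promoters of several members carried E-box letters that the lysosomal gene regulators TFEB, TFE3 and MITF are known to bind, and the stretches around them are shown to let the letters be read. RefSeq promoters of GRCm38.p6, 250 bases before to 50 after each start, were found for 25 of the 33 members, 34 promoters in all. Of the 25 members averaging 1 FPKM or more, 18 had a promoter, 27 promoters in all. The 6-letter palindrome CACGTG, read on both strands, was in 5 of the 34 (14.7%), against 7.15% of all 32851 promoters. Among genes averaging 1 FPKM or more, it was in 5 of the 27 (18.5%), against 9.93% of all promoters at that level. Its 8-letter extension TCACGTGA, which contains it, was in 4 of 34 (11.8%), against 0.974% of all. At that level it was in 4 of 27 (14.8%), against 1.86%. The variant TCATGTGA was in 1 of 34 (2.94%), against 0.986% of all. In the lines below, 5′ to 3′ on the gene's strand, capitals mark these letters. The minus-strand genes are Atp6v0b at chr4:117887310-117887410, Atp6v0d1 at chr8:105566045-105566112, Atp6v1a at chr16:44139351-44139435 and Atp6v0c at chr17:24169431-24169512. The plus-strand genes are Atp6v0e at chr17:26676354-26676415 and Clcn7 at chr17:25133331-25133410.
Atp6v0b: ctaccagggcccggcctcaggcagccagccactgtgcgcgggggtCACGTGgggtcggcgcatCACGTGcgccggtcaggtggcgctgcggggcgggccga
Atp6v0d1: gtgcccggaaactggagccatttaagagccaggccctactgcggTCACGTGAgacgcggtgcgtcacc
Atp6v0e: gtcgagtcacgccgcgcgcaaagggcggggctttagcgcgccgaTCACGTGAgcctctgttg
Atp6v1a: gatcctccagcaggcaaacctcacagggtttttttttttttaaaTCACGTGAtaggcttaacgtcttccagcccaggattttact
Clcn7: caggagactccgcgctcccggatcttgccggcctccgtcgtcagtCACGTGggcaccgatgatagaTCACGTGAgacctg
Atp6v0c: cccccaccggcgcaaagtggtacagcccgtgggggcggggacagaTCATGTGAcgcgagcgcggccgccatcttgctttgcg
Clcn7 and Atp6v0b each held 2 copies of CACGTG. A match is a description of these letters, not of a bound site.

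Of the 33 members, 25 averaged 1 FPKM or more (reads scaled by gene length and library total) and were tested; the lowest of these was Atp6v1g2, at 2.74, and the highest below was Atp6v0e2, at 0.863. Between 16581579 and 17017907 reads were listed per library. Levels of different genes below are FPKM, which divide by gene length. In bulk tissue, fewer cells of a type and less RNA per cell cannot be told apart.

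Each V1 subunit came mainly from 1 gene. Atp6v1b2, the B subunit that joins A at the catalytic sites, was at 34.0, 41.4 and 39.97 FPKM in libraries 1, 2 and 3, and its paralog Atp6v1b1, the form of kidney intercalated cells, had 1 read in all. Atp6v1c1, the C subunit of the stator, gave 99.4% ± 0.570 (SD, n = 3) of the FPKM of that subunit. Atp6v1g1, a G subunit of the stator stalks, gave 97.0% ± 0.403, and Atp6v1g2, the form known from neurons, 3.003% ± 0.403, a share that could hold reads of the gene on its other strand. Atp6v1g3 and Atp6v1e2, forms known from kidney and testis, had 0 reads in every library, where 3 reads would be at most 0.0962 and 0.181 FPKM. Atp6v1c2, a second C form, had 4, 3 and 0 reads, so these V1 forms were at or near the limit of the libraries.

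The remaining V1 subunits are single genes or have 1 expressed form. Atp6v1e1, the E subunit of the stator stalks, was at 27.7, 33.7 and 33.6 FPKM. Atp6v1f and Atp6v1d, subunits of the central rotor, were at 59.1, 65.95 and 58.0 FPKM and at 15.6, 17.9 and 18.4. Atp6v1h, which regulates ATP splitting, was at 4.30, 5.02 and 4.82 FPKM. Library 1 was the lowest for Atp6v1e1, Atp6v1d and Atp6v1h, while library 3 was the lowest for Atp6v1f.

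In V0, subunit a came from 3 genes rather than 1. Tcirg1 (chr19:3896050-3907133 of mm10, minus strand), the a3 form, was at 44.9, 46.6 and 41.4 FPKM. Atp6v0a1, the a1 form widespread in endosomes and neurons, was at 21.2, 16.9 and 19.1 FPKM, and Atp6v0a2, the a2 form of the Golgi, at 11.6, 11.1 and 11.8. Tcirg1 therefore held the largest share of subunit a in each library, 57.7%, 62.3% and 57.1%, and its level was 2.35 ± 0.358 (SD, n = 3) times that of Atp6v0a1. Atp6v0a4, the kidney form, had 5, 13 and 12 reads.

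Subunit d, which couples the rotor to the V0 ring, came mainly from the widely expressed Atp6v0d1, at 52.3, 53.9 and 52.5 FPKM. Atp6v0d2 (chr4:19876841-19922605, minus strand), a form induced in osteoclasts and some macrophages and needed for osteoclast fusion, was at 13.9, 22.1 and 20.02. Library 1 was the lowest for Atp6v0d2 and the libraries nearly coincided for Atp6v0d1. The share of Atp6v0d2 was 21.04%, 29.1% and 27.6% of subunit d. Subunit e came from Atp6v0e, at 30.4, 34.2 and 33.5 FPKM, which gave 97.4% ± 1.88 of it. Its paralog Atp6v0e2 had 63, 21 and 21 reads. The ring proteolipid Atp6v0c was at 19.3, 19.9 and 19.1 FPKM, with no library apart.

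**Figure D1:**
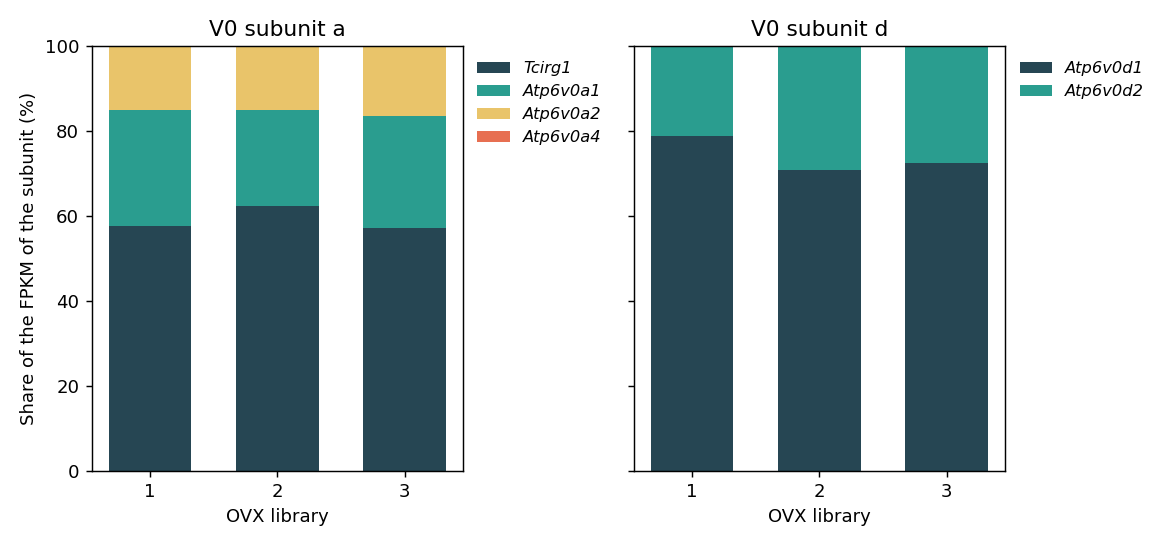
Share of each paralog in the summed FPKM of V0 subunits a (left) and d (right), stacked per OVX library, as percent. Tcirg1 held 57.1% to 62.3% of subunit a, and Atp6v0d2 21.04% to 29.1% of subunit d.

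Car2 (chr3:14886273-14900770, plus strand) stood apart from the other members in level, with 549, 544 and 591 FPKM and rank 55 of all genes by mean. Car2 is also a red cell enzyme, and Car1, its erythroid relative, was at 220, 196 and 232 FPKM. The 12 erythroid markers summed to 43695, 48711 and 55943 FPKM, highest in library 3, the library in which Car2 was highest; their part in Car2 was not tested. The other partners were far lower. Plekhm1 was at 17.5, 17.3 and 18.1 FPKM, Clcn7 at 12.0, 13.0 and 11.8, and Ostm1 at 8.96, 8.58 and 9.79. Slc4a2 was at 8.04, 9.67 and 8.68 FPKM, and the erythroid anion exchanger Slc4a1 was 61.9 ± 5.40 times as high. Fastk, on the other strand at the Slc4a2 locus, was at 12.7, 11.8 and 12.3 FPKM, and the labels do not say whether counting used strand. The same limit holds for Atp6v1g2, across from Nfkbil1 at 5.47, 6.87 and 5.65 FPKM, above the 2.61, 3.29 and 2.31 of Atp6v1g2 and highest in library 2 as it was. It holds too for Atp6v1c2, across from Pdia6 at 49.4, 50.6 and 50.6 FPKM. Snx10 (chr6:51523901-51590679, plus strand) was at 5.86, 10.6 and 8.34 FPKM, low in library 1 and high in library 2.

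**Figure D2:**
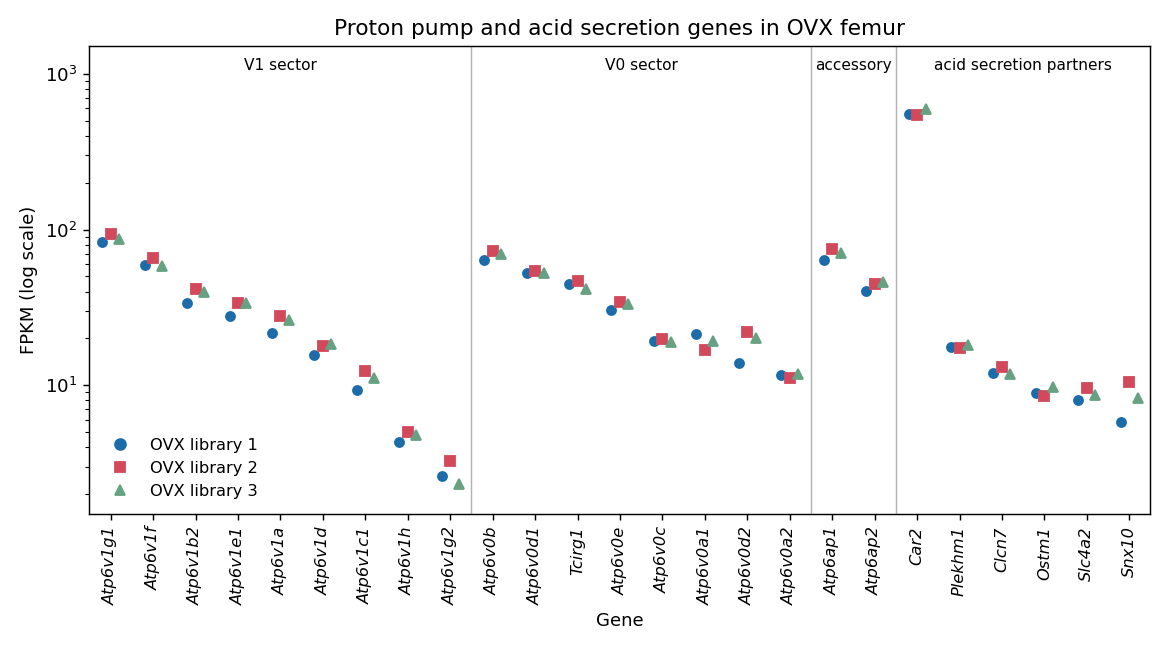
FPKM of the 25 tested members in each OVX library, on a log axis, by role. Car2 sits near 561 FPKM and the others between 2.31 and 94.0; library 1 is the lowest for 15 of the 25.

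Some neighbours in the order of levels overlapped. Atp6ap1, the Ac45 protein that guides the pump, was at 64.1, 75.2 and 70.5 FPKM and the V0 subunit Atp6v0b at 63.6, 73.3 and 70.0. Atp6ap1 was the higher in each library, but their 95% counting intervals overlapped in each, so they could not be ranked. The other accessory protein, Atp6ap2, the prorenin receptor, was at 40.5, 44.8 and 46.04 FPKM. Its interval overlapped that of Tcirg1 in library 2 only. It lay below that of Tcirg1 in library 1 and above it in library 3, so their order changed between libraries. Atp6ap1l, related to Atp6ap1, had 1, 7 and 0 reads. The order also rests on the length used. For 12 of the 25 tested members the listed length was over 1.5 times that of the longest principal transcript, and the largest ratio was that of Atp6v1h, 4.76. The listed length equalled the union of all annotated exons for 30 of the 33 members, but not for Tcirg1, Atp6v0e and Atp6v1e2. With the transcript length, chosen after seeing the data, Atp6v0b was at 141 ± 10.1 FPKM (SD, n = 3) in place of 69.0 ± 4.94, Atp6v1e1 at 99.2 ± 10.7 in place of 31.7 ± 3.41, and Snx10 at 31.0 ± 8.84 in place of 8.26 ± 2.36. The Tcirg1 and Atp6v0d2 shares were 58.7% and 25.4% with it, close to the 59.1% and 25.9% with the listed length.

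**Figure D3:**
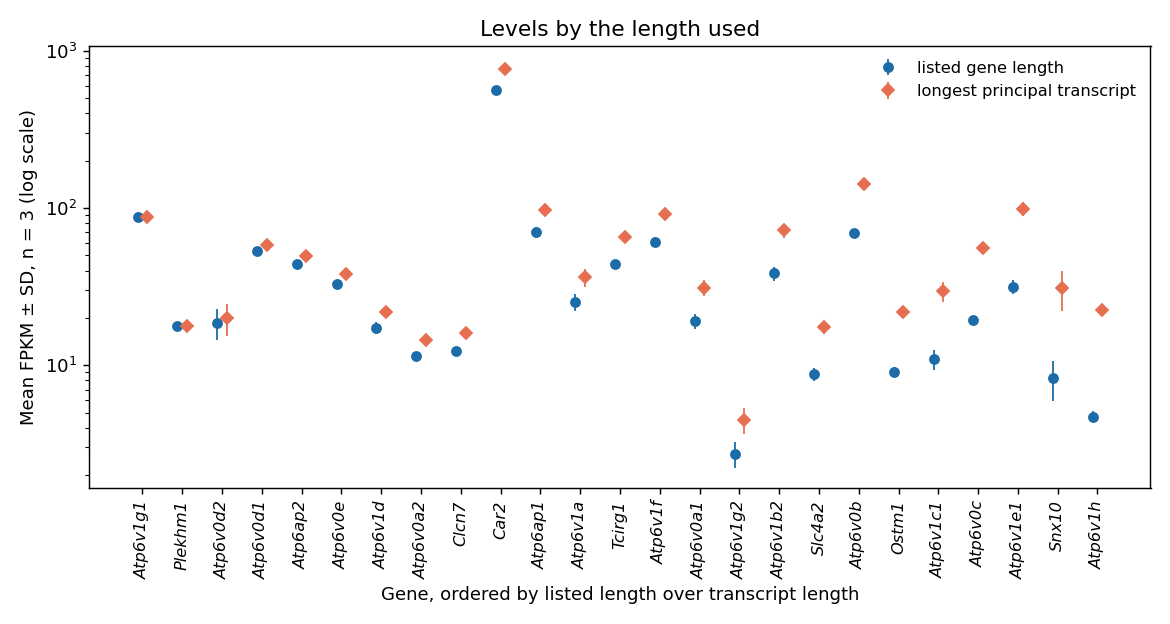
Mean FPKM with SD over the 3 OVX libraries (log axis), with the listed gene length (circles) and with the longest principal transcript (diamonds), genes ordered by the ratio of the lengths. Points separate toward the right, to 4.76 times for Atp6v1h.

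The 3 libraries were compared with a chi-square test on the reads recovered from the FPKM, which sets them against counting noise and compares libraries, not conditions. Of the 25 tested members, 18 differed between libraries at an adjusted p below 0.05, against 38.7% of all 14011 tested genes. The members were also deeper, with a median of 1620 reads in library 1 against 491 over all tested genes, and deep genes pass such a test more easily. The median ratio of the highest to the lowest library was 1.15 for the members and 1.15 for all tested genes, and the median spread beyond counting noise, as a coefficient of variation, was 6.87% and 4.97%. Called members were 7 of 9 in V1, 5 of 8 in V0, both tested accessory genes, and 4 of 6 partners. Without library 1 the count of called members fell from 18 to 9, and the share of all tested genes called was 25.0%. With library totals scaled by median of ratios, 19 were called, against 37.4% of all tested genes.

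Library 1 held the lowest level of 15 of the 25 members, against 32.6% of all tested genes (14 and 26.5% with FPKM recomputed from the reads listed). Called members higher in library 2 than in library 1 numbered 13, against 11.7% of all tested genes, and 2 were lower, against 18.0%. Higher in library 3 than in library 1 were 11, against 6.99%, and 2 were lower, against 11.2%. Between libraries 3 and 2, 3 were higher in library 3, against 13.2%, and 6 lower, against 11.8%. With median-of-ratios totals, 15 were higher in library 2 than in library 1, against 14.2% of all tested genes. Atp6v0a1 alone was lower, against 1921 of the 14011 tested genes. Higher in library 3 than in library 1 with those totals were 12, against 9.19%, and 2 were lower, against 1221 of the 14011. In V1, 7 of 9 were called higher in library 2 than in library 1 and none was called lower. In V0, 3 of 8 were called higher and 1 lower. V1 genes summed to 257, 302 and 282 FPKM, and V0 genes to 259, 279 and 268.

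The size of the shift differed by gene. Snx10 was 1.81 times as high in library 2 as in library 1, and 1.42 times in library 3 (chi-square test over the 3 libraries, adjusted p = 3.14e-42). Atp6v0d2 was 1.59 and 1.44 times as high (adjusted p = 4.16e-17), and libraries 2 and 3 alone did not separate (adjusted p = 0.117). The V1 subunits Atp6v1c1, at 9.27, 12.4 and 11.1 FPKM, and Atp6v1a, the ATP-splitting A subunit, at 21.7, 27.8 and 26.4, were 1.34 and 1.28 times as high in library 2 as in library 1. Atp6v1b2 and Atp6v1e1 were each 1.22 times as high. Atp6v0a1 went the other way, 0.796 times as high in library 2 (adjusted p = 5.78e-14 over the 3 libraries). Tcirg1 was lowest in library 3 (adjusted p = 3.11e-05), and the test was lost without that library (adjusted p = 0.715). The V0 subunits Atp6v0d1 (adjusted p = 0.867) and Atp6v0c, the proteolipid of the ring (0.721), along with Plekhm1 (0.443) and Clcn7 (0.141), did not pass the same test. Nor did Atp6v0a2 (0.282), Atp6v1h (0.0728) and Atp6v1g2 (0.0649).

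Osteoclast genes outside the pump shifted in the same libraries. Of 11 tested genes of an osteoclast resorption list, 9 differed between libraries, against 38.7% of all tested genes. On that list 8 were lowest in library 1, against 32.6%. Ctsk, the collagen-degrading protease cathepsin K, was at 85.4, 397 and 330 FPKM, and Acp5, the phosphatase TRAP, at 109, 368 and 253. The 3 genes of the list that were not lowest in library 1 are named after their values were seen. Itgb3, the integrin beta 3 chain, also of platelets, was lowest in library 2, at 97.2, 71.8 and 109 FPKM (chi-square test, adjusted p = 1.11e-175). The kinase Src, at 12.3, 12.02 and 13.2 FPKM (0.205), and the coactivator Ppargc1b, at 1.22, 1.12 and 1.20 (0.840), did not pass that test. The median ratio of library 2 to library 1 was 2.17 on that list, 1.14 over the tested members and 0.997 over all tested genes. Osteoblast markers (12 of 12) and chondrocyte markers (11 of 11 tested) were highest in library 2, against 34.8% of all tested genes. They summed to 2661, 6362 and 1885 FPKM and to 41.6, 679 and 60.4. Skeletal muscle markers were lowest in library 2 in 11 of 11 tested, against 36.8% of all tested genes, and summed to 1688, 148 and 1008 FPKM. Macrophage markers summed to 613, 629 and 630 FPKM, with C1qa, C1qb and C1qc at the highest levels, but 7 of 11 tested differed between libraries, against 38.7% of all tested genes. Library 1 was the lowest for 4 of these 11, against 32.6% of all tested genes. It was the highest for 4, against 33.3%, with C1qa, C1qb and C1qc among them. Csf1r, at 33.6, 47.2 and 38.3 FPKM, Vcam1, at 56.9, 67.7 and 63.3, and Cd163, at 6.86, 12.3 and 17.3, were lowest in library 1 and are named after their values were seen. The part of these tissues in the members' differences was not tested.

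**Figure D4:**
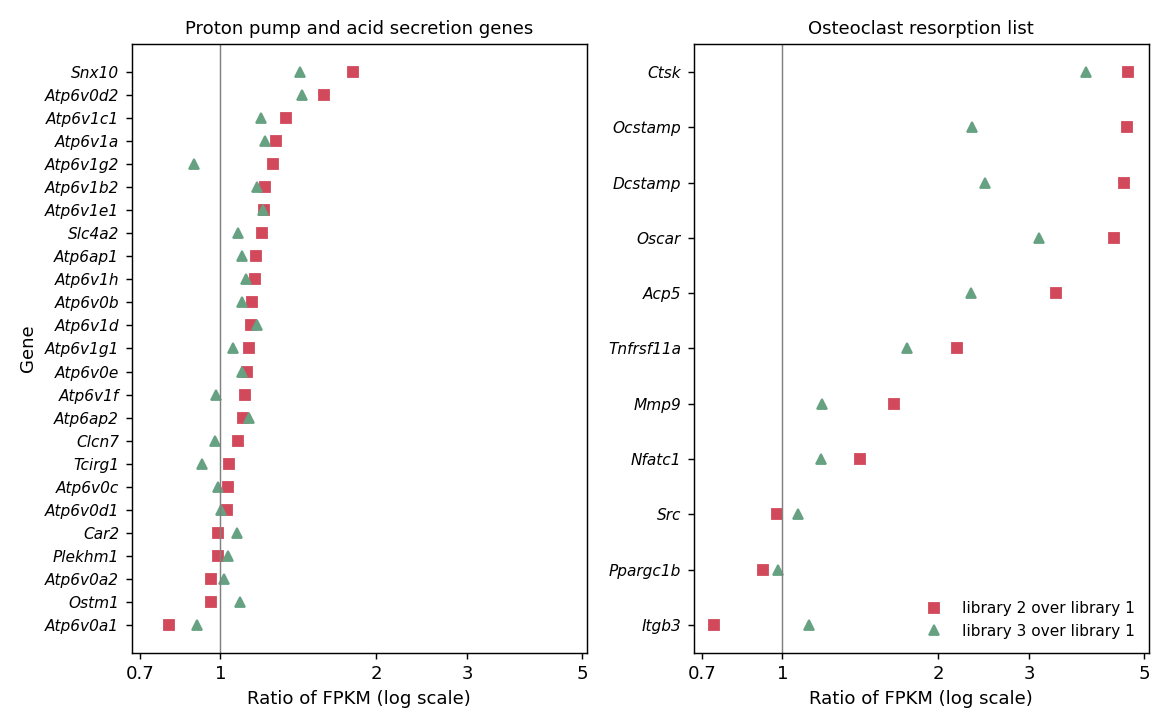
Ratio of FPKM in OVX libraries 2 (squares) and 3 (triangles) to library 1 (log axis; line at 1), for the 25 tested members (left) and 11 tested osteoclast resorption genes (right). The members span 0.796 to 1.81 for library 2, and Ctsk reaches 4.65.

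Among genes that assemble or regulate the pump, 14 were tested. Of these, 6 (42.9%) differed between libraries, against 38.7% of all tested genes, 6 were lowest in library 1, against 32.6%, and the median ratio of library 2 to library 1 was 1.003. Library 1 was the highest for 4 of the 14, against 33.3%. Rab7, the late endosome GTPase with which Plekhm1 works, was at 85.5, 93.0 and 93.5 FPKM (chi-square test, adjusted p = 0.00892). Rogdi, at 19.2, 17.5 and 15.8 FPKM (0.00189), and Dmxl2, at 5.35, 4.44 and 4.35 (1.47e-07), went the other way. Both are named after their values were seen. Tfeb, a master regulator of lysosomal genes, was at 8.85, 8.69 and 8.42 FPKM (0.495), and Mitf, its relative with a role in osteoclasts, at 1.26, 1.58 and 1.63 (0.170). Of 16 other lysosomal genes, 8 (50%) differed, against the same 38.7%, with a median ratio of 1.04. Library 1 was the lowest for 9 of these 16, against 32.6% of all tested genes, and the highest for 5, against 33.3%. It was also the lowest for 7 of the 12 erythroid markers, so this trait was not particular to the members.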

How the data were processed

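RNA was sequenced from powdered mouse femur. The authors deposited FPKM per gene in 1 table; the submitters' processing notes name Trimmomatic, FastQC, STAR, featureCounts and mm10, with no versions. The gene lengths are the deposited ones, in another unit (bases). Columns A1 to A3 carry the library names of the OVX labels. A further 3 value columns match no label and were not used in any step, so the planned limma comparison of Zin with OVX was not run. Whole reads were recovered from FPKM and gene length (100.0% of values within 0.01 read). Per gene, reads were tested against the reads listed per library with a chi-square test, adjusted by Benjamini-Hochberg over the 14011 genes averaging 1 FPKM or more, threshold 0.05. The test was run on simulated counts whose only noise was counting noise, so that check does not cover spread beyond it. No label names separate animals per library, so these p-values measure only the spread between these samples beyond counting noise, which may be technical. Promoters are RefSeq's, on GRCm38.p6, which is the mm10 sequence. Alternatives were the filter, the scaling and leaving out each library. Every member with a mean of at least 1 FPKM could be named; other lists give at most their 3 highest genes or those a result turns on. Members and lists were chosen with earlier results of these data known. Tests ran in scipy 1.17.1 (Python 3.11.15), tables in pandas 2.3.3, figures in matplotlib 3.10.9.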

Additional observations from a re-analysis of the deposited data

How the results depend on the processing

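Members differing between libraries were 18 of 25 tested, 20 of 30 with no filter and 18 of 23 with a mean of at least 5 FPKM. They were 19 of 25 with median-of-ratios totals, and 9 to 15 of 25 with 1 library left out. The share of all tested genes called was 38.7% at the 1 FPKM filter, 37.4% with median-of-ratios totals and 25.0% without library 1. No matching share is given for the unfiltered and 5 FPKM counts, so those counts cannot be read against 38.7%. Without library 3, 11.7% were called higher and 18.0% lower in library 2. Without library 2, 6.99% were called higher and 11.2% lower in library 3. Without library 1, 10 members lost the call, without library 2, 5, and without library 3, 4. Atp6v1h gained it with median-of-ratios totals (adjusted p = 0.0251) and without library 3 (0.0361), and Atp6v1g2 without library 1 (0.0372). The summed V1 and V0 level, 549 FPKM, was 1444 as TPM, another unit, and 891 with the principal transcript length, an alternative chosen after seeing the data. The Tcirg1 and Atp6v0d2 shares are ratios within a library, so scaling and unit cannot change them. They kept within 1 SD with the principal transcript length and with 1 library left out. The libraries kept are among those that set the SD. No paired analysis was possible because only the OVX libraries had columns matched to labels. The comparison of Zin with OVX was not run. Intervals and floors cover counting error only.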

Other observations

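Other families around the acid secretion genes gave further values. Clcn3 and Clcn4, endosomal relatives of Clcn7, were at 9.73, 9.19 and 10.1 FPKM and at 8.71, 8.74 and 8.29 in OVX libraries 1, 2 and 3, near the level of Clcn7. Car3, another carbonic anhydrase, was at 59.1, 84.1 and 17.4 FPKM. Car12 was at 0.221, 2.80 and 0.143 FPKM, high in library 2 alone of the 3. Slc4a7, a bicarbonate cotransporter, was at 2.66, 2.62 and 2.67 FPKM. Reads of the processed pseudogene Atp6v0c-ps2 came to 1.99% ± 0.627 (SD, n = 3) of those of Atp6v0c.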
